A study of Mus musculus with 4 samples.

Results

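The genes described here encode ATP-dependent chromatin remodellers and their partner subunits. They were found by name in the deposited list of RNA bisulfite sites, with a pattern for the Smarc, Arid, Chd, Ino80 and Baz families and 8 single genes (Srcap, Ep400, Atrx, Hells, Pbrm1, Bptf, Brd7 and Brd9). Of 7806 gene labels in the list that match RefSeq, 39 fit the pattern, and they held 4718 of the 506952 listed sites. RefSeq holds 50 symbols that fit it, of which 47 are protein-coding, so 9 protein-coding genes and 2 pseudogenes had no listed site. The pattern also takes in genes that are no remodeller subunits (Arid4a, Arid4b, Arid5a and Arid5b) and the long non-coding RNA Ino80dos.

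The series measured poly(A) RNA of cultured mouse NRAS/AE9a leukemic cells (AML cells by the labels) after bisulfite treatment, which turns unmodified cytosine into uracil. It has 2 Tet2 KO libraries and 2 WT libraries, and cells of both genotypes carry NRAS and AE9a, a truncated AML1-ETO fusion. The medium of both held the growth factors IL-3 and IL-6 (10 ng/ml each) and SCF (50 ng/ml), with puromycin (2 µg/ml) and G418 (1 mg/ml) for selection. The labels do not say whether the replicates were separate cultures, or which part of Tet2, the gene of an enzyme that oxidises 5-methylcytosine, was deleted. The table names itself a list of sites unique to the knockout and gives values merged over the Tet2 KO replicates with a call (WT columns, 0; columns that name a library, 0). A comparison of Tet2 KO with WT cells is thus not made here. A listed level is the authors' fraction of the reads used at a site that were counted as unconverted. The list starts at a level of 0.2 and a coverage of 10 reads.

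Chromatin remodellers use the energy of ATP to slide, evict or exchange nucleosomes, and so set which stretches of DNA other proteins can reach. Their motor subunits belong to the SNF2 family, and each family works in complexes of its own: SWI/SNF (BAF) complexes open chromatin, ISWI complexes space nucleosomes, CHD proteins include the motors of the repressive NuRD complex, and INO80 and SRCAP complexes handle the histone variant H2A.Z. In blood cells BAF subunits take part in stem cell maintenance and in the growth of acute myeloid leukemia. These are roles of the proteins, whereas the measurements below concern their RNA.

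Not all of these sites lie on a cytosine of the reference genome. Short reference sequences from RefSeq (GRCm38.p6, the same assembly as mm10) covered 19 of the member sites, and 7 of these stood on C, 8 on G, 4 on A and 0 on T. The 12 sites on G or A had a median level of 0.65, with 0% called in both replicates, and the 7 on C had 0.5, with 28.6% (a Brd9 and a Smarcad1 site). All 19 lay in Baz2a, Brd9, Chd4, Smarcad1 and Smarcd1, most of them close together. Neighbouring sites often share reads, so these few sites cannot show a difference between letters. These sequences are promoter windows and hairpins, which are not a random sample of the listed sites. Over all plus-strand sites of the table that these sequences covered, 3138 of 6037 (52.0%) stood on C, 1811 on G, 1088 on A and 0 on T. Over the minus-strand sites covered, 132 of 146 (90.4%) stood on C. The position just before a plus-strand site was T in 17.7% of cases, so T was missing at the listed position and not beside it. Among these plus-strand sites the median level was 0.7 on C and 0.636 on G or A, and 18.8% of those on C were called in both replicates, against 9.38% of those on G or A. The sources used here do not say what was counted as an unconverted read at a G or A. The plus-strand values below are therefore described as listed sites and not as methylated cytosines. Reads called unconverted below are those that the list counts so, and for most of these sites the reference letter is not known.

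The stretches with the clearest examples are printed on the plus strand, 5′ to 3′, with the listed positions in capitals and all other letters in lower case. They come from the RefSeq promoter windows of Chd4, of Smarcad1 and of genes next to Smarcd1 and Baz2a (GRCm38.p6), and each is 30 bases long.
Chd4, chr6:125096183-125096212: ccccttcggccgcggcgAGgaggagCtGga
Smarcad1, chr6:65043194-65043223: ccctccctgcagCtagttCattgaaagctg
Smarcd1, chr15:99703761-99703790: acaggcctaCatgGatctcctGGcttttga
Baz2a, chr10:128125572-128125601: acatttactgtcatcGgcccaagatggagg
In Chd4 the listed positions were A, G, C and G, and the site on C was unconverted in 14 of 17 reads used (level 0.824, Wilson 95% interval 0.590 to 0.938). The G at position 125096210, with an unlisted t between them, stood at 16 of 18 reads (0.889, interval 0.672 to 0.969). Of the 10 cytosines in this Chd4 stretch 1 was listed. The Baz2a position is a G covered by 72 reads, with 49 of 58 reads used counted as unconverted (0.845, interval 0.731 to 0.916), and 0 of the 7 cytosines around it were listed. Smarcad1 had both sites of its stretch on C, one at 3 of 12 reads (0.25, interval 0.0889 to 0.532) and one called in both replicates at a mean level of 0.825 ± 0.0113 (SD, n = 2).

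The strand of the gene separated members with many sites from members with few. Among protein-coding members whose strand RefSeq gives, 19 of 19 plus-strand genes and 10 of 18 minus-strand genes had a listed site, against 51.4% and 18.5% of all protein-coding genes on these strands. At least 50 sites were found in 18 of the 19 plus-strand members, against 33.6% of plus-strand genes, and at least 5 sites in 3 of the 18 minus-strand members, against 1.24% of minus-strand genes. With strand ignored, 38 of 47 protein-coding members (80.9%) had a site, against 34.2% of 21900 genes. These shares are not corrected for expression or transcript length, which were not measured here, and genes that are not transcribed are among those without sites. Of all member sites, 98.9% were on the plus strand, against 99.1% of the whole table.

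**Figure D1:**
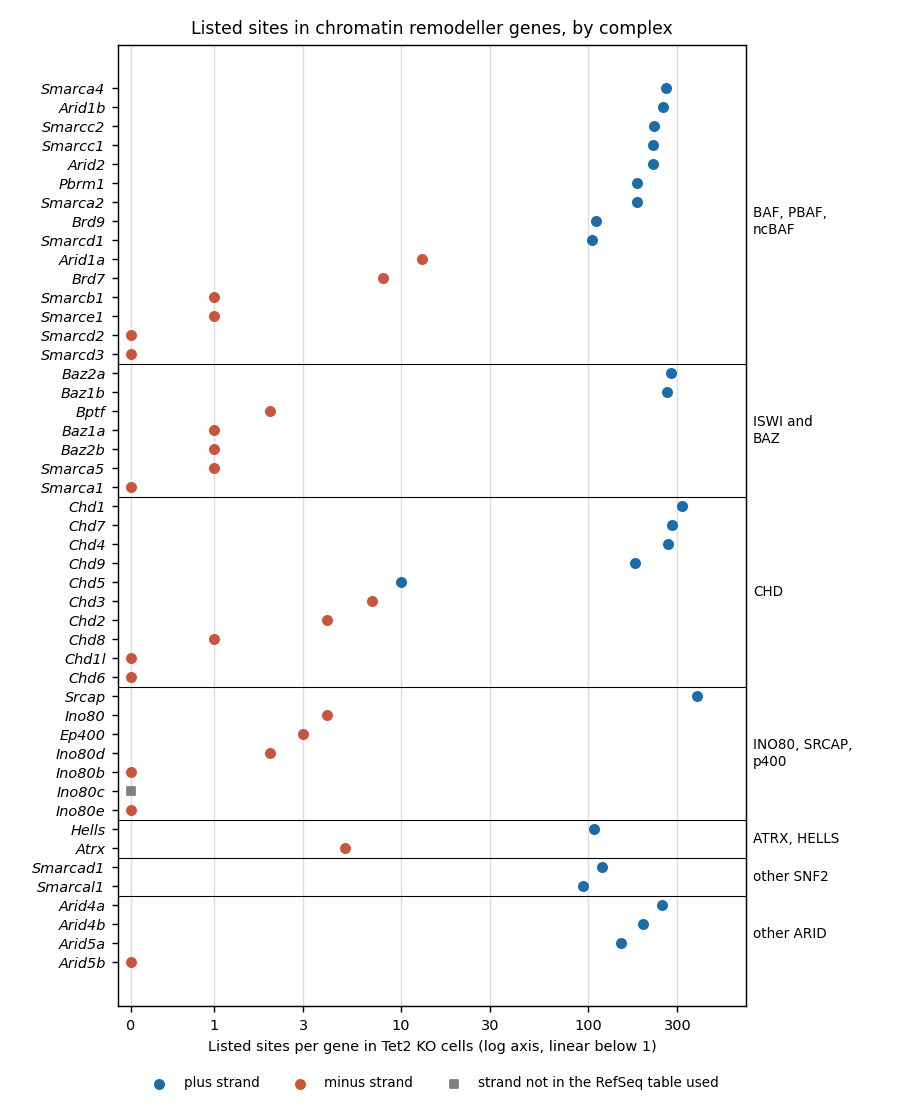
Number of listed sites in Tet2 KO cells for each of the 47 protein-coding members, grouped by complex, on an axis that is logarithmic above 1 site. Each point is 1 gene and its colour is the strand of its sites, or the RefSeq strand where it had none, and the grey square is Ino80c, with 0 sites and no strand in the RefSeq table used. Plus-strand members lie between 10 and 381 sites and minus-strand members between 0 and 13.

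Plus-strand members had a median of 221 sites (range 10 to 381, 23 protein-coding genes), against 71 for 5465 other plus-strand genes with a site. Minus-strand members with a site had a median of 2 (range 1 to 13, 15 genes), against 1 for 1996 others, whose counts reached 228 in Gcg. Every protein-coding plus-strand member but Chd5 thus had more sites than the median plus-strand gene. These counts are not corrected for gene length. Per kb of gene span, plus-strand protein-coding members ran from 0.194 sites in Chd5 to 9.2 in Arid5a, and no such value is given here for other genes. The median coverage of the member sites was 18 reads (quartiles 14 and 26, range 10 to 150), of which a median of 13 entered the level. The median level was 0.5 (quartiles 0.36 and 0.68) at the 4664 plus-strand member sites and 0.529 (0.37 and 0.7) at those of other genes. It was 0.238 (0.2 and 0.286) at the 54 minus-strand member sites and 0.231 at those of other genes. Reads used made up a median of 82.9% of the covering reads at plus-strand member sites and 56.7% at minus-strand ones. What the gene's strand does to these values was not tested.

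In the BAF, PBAF and ncBAF complexes, 13 of 15 genes had sites, against 34.2% of all protein-coding genes. They had 1781 sites in all, with a median level of 0.5. Smarca4 encodes BRG1, one of the alternative ATPases, and had 260 sites on chromosome 9 between 21616311 and 21703476. Their median level was 0.534 (quartiles 0.362 and 0.7), and 36 were called in both Tet2 KO replicates. Its paralog Smarca2, which encodes the other ATPase, BRM, had 183 sites with a median level of 0.459 (0.332 and 0.6), 36 of them in both replicates. Both motors of the complex thus had listed sites, and the quartile ranges of their levels overlapped. The site with the most reads used in the group was in Smarca4, at 21679037, with 70 of 115 reads unconverted (0.609, Wilson interval 0.517 to 0.693) and 143 reads covering it. Another Smarca4 site, at 21638737, was unconverted in 23 of 23 reads (interval 0.857 to 1), the highest level in the group at 20 or more reads used.

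The scaffold subunits Smarcc1 (BAF155) and Smarcc2 (BAF170), around which the complex assembles, had 222 and 224 sites with median levels of 0.467 and 0.5. Smarcc1 had the highest share of sites called in both replicates among members with 50 or more sites, 50 of 222 (22.5%), against 14.3% of all sites in genes. Its site at 110239670 on chromosome 9 was fully unconverted in both replicates (mean level 1, SD 0, n = 2, 27 covering reads). Smarcd1, a further core subunit, had 105 sites (median 0.553), whereas its paralogs Smarcd2 and Smarcd3, both on the minus strand, had 0. The core subunit genes Smarcb1 (the tumour suppressor SNF5) and Smarce1, with minus-strand sites, had 1 each, at levels of 0.25 (3 of 12 reads, interval 0.0889 to 0.532) and 0.2 (2 of 10 reads, 0.0567 to 0.510). The list sets no upper limit for genes with few or no sites, since it leaves out any position below its level and coverage minimums. By its name it also leaves out sites shared with WT cells, which could not be checked. The counts per gene are thus counts of listed sites and not of all sites in the knockout.

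The ARID subunits that define canonical BAF split by strand. Arid1b, on the plus strand of chromosome 17, had 250 sites with a median level of 0.529 (quartiles 0.364 and 0.714). Arid1a, on the minus strand of chromosome 4, had 13 sites with a median of 0.3 (0.231 and 0.312), none of them called in both replicates. Arid1a was nevertheless the minus-strand member with the most sites. Of its sites, 11 lay in the 5′-most 10% of the gene span, between 133753056 and 133753565, with levels from 0.2 to 0.5. With 16 reads used, the site at 133753230 had 6 unconverted (0.375, interval 0.185 to 0.614).

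The PBAF subunit genes Arid2 (BAF200) and Pbrm1 (BAF180, a protein with several bromodomains) had 221 and 183 sites with median levels of 0.5 and 0.462. Brd7, a further PBAF subunit gene on the minus strand, had 8 sites that lay together between 88361991 and 88362041 on chromosome 8, with levels from 0.2 to 0.333. Brd9, the bromodomain subunit of ncBAF, had 110 sites on chromosome 13 with a median of 0.5, and 34 of them were in the 5′-most 10% of its span. The subunit genes with plus-strand sites thus had over 100 each: Arid1b for canonical BAF, Arid2 and Pbrm1 for PBAF, and Brd9 for ncBAF. Such counts are not rare, since other plus-strand protein-coding genes with a site had an upper quartile of 116 sites. Arid1a and Brd7, on the minus strand, had 13 and 8.

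**Figure D2:**
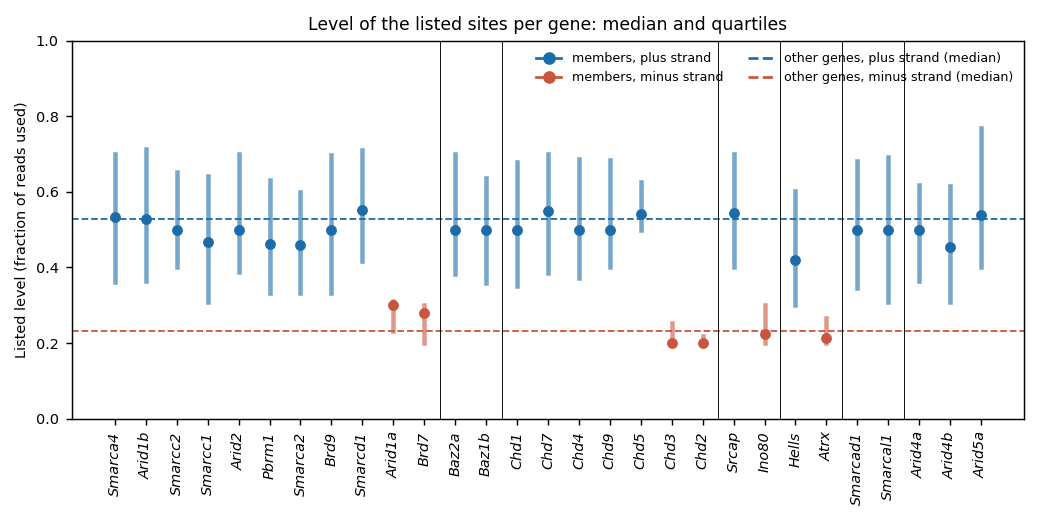
Listed level (fraction of reads used that were counted as unconverted) of the sites in each protein-coding member with 4 or more sites. Points are medians over the sites of a gene, bars run from the lower to the upper quartile, and dashed lines are the medians over sites of all other genes on each strand (0.529 plus, 0.231 minus). Plus-strand members have medians from 0.42 to 0.553 and minus-strand members from 0.2 to 0.3.

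In the ISWI group 6 of 7 genes had sites, against 34.2% of all protein-coding genes, but the ATPase genes had almost none. Smarca5, which encodes the ISWI motor SNF2H, had 1 site (chromosome 8, position 80739015, 5 of 21 reads, level 0.238, interval 0.106 to 0.451), and Smarca1, the gene of its paralog SNF2L, had 0. Both lie on the minus strand. The partner genes Baz2a, whose product TIP5 joins SNF2H in the nucleolar remodelling complex, and Baz1b, which encodes the Williams syndrome transcription factor, had 276 and 263 sites with median levels of 0.5 each. Nearly all 544 sites of the group were thus in these plus-strand partners. The best read site was in Baz1b, at 135228583 on chromosome 5, with 58 of 91 reads unconverted (0.637, interval 0.535 to 0.729). Baz1b also had the highest single-replicate level at 20 or more reads used, 17 of 20 reads at 135216684 (0.85, interval 0.640 to 0.948). A Baz2a site at 128111152 on chromosome 10 had a mean level of 1 in both replicates (SD 0, n = 2), but only 12 covering reads. Bptf, the large subunit of NURF, had 2 sites (0.273 and 0.286), and Baz1a (ACF1) and Baz2b had 1 each (0.25 and 0.2), all on the minus strand.

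Of the 10 genes with a Chd name, 8 had sites, against 34.2% of all protein-coding genes. They had 1068 sites in all, with a median level of 0.5. Chd1, whose product binds methylated histone H3 lysine 4, had 317 sites on chromosome 17, the most of any CHD gene. Near its 5′ end, the site at 15705211 was unconverted in 40 of 41 reads (0.976, interval 0.874 to 0.996) and the one at 15705279 in all reads used in both replicates (mean level 1, SD 0, n = 2, 26 covering reads). These were the highest values of the CHD group with 20 or more reads used and with calls in both replicates. Chd2, its paralog on the minus strand, had 4 sites, all between 0.2 and 0.273.

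The NuRD motors differed in the same way by strand. Chd4, the main NuRD ATPase gene, had 268 sites on chromosome 6 with a median level of 0.5 (quartiles 0.373 and 0.688), and 30 of them were called in both replicates. It also held the most deeply covered member site, at 125114106, with 57 of 123 reads unconverted (0.463, interval 0.378 to 0.551) and 150 reads covering. Chd3, on the minus strand of chromosome 11, had 7 sites with a median of 0.2, of which the best read stood at 5 of 16 reads (0.312, interval 0.142 to 0.556). Chd5, a NuRD ATPase gene known mainly from the nervous system, had 10 sites at a median coverage of 12.5 reads, none called in both replicates. It was the plus-strand member with the fewest sites and the only one under 50 among protein-coding members.

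In the third CHD subfamily, Chd7, the gene mutated in CHARGE syndrome in humans, had 282 sites with a median level of 0.55, and Chd9 had 179 with 0.5. Only 13 of the 179 Chd9 sites (7.26%) were called in both replicates, the lowest share among members with 50 or more sites. No site of Chd9 was covered by more than 27 reads. Chd8 had 1 site on the minus strand, called in both replicates at a mean level of 0.237 ± 0.0523 (SD, n = 2), and Chd6, on the minus strand, had 0. Chd1l, which is not of this subfamily, also lies on the minus strand and had 0.

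Srcap, the ATPase gene of the complex that deposits H2A.Z, had 381 sites on chromosome 7 between 127512219 and 127561038, the most of any member. Their median level was 0.544 (quartiles 0.4 and 0.7), and 55 were called in both replicates. Its best read site stood at 22 of 44 reads (0.5, interval 0.358 to 0.642), and a site at 127558847 was fully unconverted in both replicates (mean level 1, SD 0, n = 2, 33 covering reads). The other motors of this group lie on the minus strand: Ino80, the ATPase gene of the INO80 complex, had 4 sites and Ep400, the gene of p400 in the TIP60 complex, had 3. The Ino80 site called in both replicates, at 119458261 on chromosome 2, had a mean level of 0.454 with an SD of 0.207 between the replicates, the largest level among minus-strand member sites called in both. Of the INO80 subunit genes, Ino80d had 2 sites (0.2 and 0.333) and Ino80b, Ino80c and Ino80e had 0. The plus-strand non-coding RNA Ino80dos starts just past the 5′ end of Ino80d, on the opposite strand, and encodes no subunit. Its 15 sites had a median level of 0.5 at a median coverage of 12 reads.

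Among the remaining ATPase genes, Hells (LSH), which promotes DNA methylation of repeats, had 108 sites on chromosome 19 with a median level of 0.42, the lowest of the plus-strand members. Its best read site stood at 34 of 91 reads (0.374, interval 0.281 to 0.476). Atrx, whose product places histone H3.3 at telomeres and repeats, had 5 minus-strand sites with levels from 0.2 to 0.273. Smarcad1 and Smarcal1, SNF2-like genes that act at replication forks and DNA damage, had 119 and 94 sites with median levels of 0.5. Their highest single-replicate level at 20 or more reads used was 21 of 22 reads in Smarcad1, at 65043882 on chromosome 6 (0.955, interval 0.782 to 0.992). Over all SNF2-type motors of the pattern, 18 of 21 had a site, against 34.2% of all protein-coding genes. By the strand of their sites, 11 of these are plus-strand and 7 minus-strand genes. Plus-strand motors (2201 sites) and the other plus-strand members (2463 sites) both had a median level of 0.5.

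The genes that carry an ARID name but are no remodeller subunits had values in the same range. Arid4a and Arid4b, whose products work with the SIN3 corepressor, had 247 and 197 sites with medians of 0.5 and 0.455. Arid5a, which encodes an RNA-binding regulator of cytokine mRNA stability, had 150 sites with a median of 0.538, and its paralog Arid5b, on the minus strand, had 0. One Arid5a site, at 36320316 on chromosome 1, stood at 21 of 23 reads (0.913, interval 0.732 to 0.976), and its neighbour at 36320322 was fully unconverted in both replicates (mean level 1, SD 0, n = 2).

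Sites of the members gathered towards the 3′ end, as did those of other plus-strand genes, but not in every member. The span of each gene was cut into 10 equal parts in the direction of transcription. The last part held 27.8% of the 4664 plus-strand member sites (exact 95% interval 26.5 to 29.1), against 28.9% of the sites in other plus-strand genes. The eighth part held 16.2%, against 10.5%. Among member sites of either strand with 50 or more covering reads the last part held only 11.2%, with no value at that coverage given for other genes. Of the 22 members with 50 or more sites, 10 had more sites in the last part than in any other, with shares there from 22.9% in Smarcd1 to 71.2% in Arid1b. No such count is given for other genes. Over plus-strand protein-coding genes with 5 or more sites, the median share in the last part was 22.7% for members and 24.1% for others. Arid1b was the most uneven, with 178 of 250 sites there (71.2%), followed by Chd9 with 110 of 179 (61.5%) and Chd7 with 159 of 282 (56.4%). Hells had 2 of 108 sites in the last part, and Arid5a 3 of 150, with 84 of its sites in the eighth part. Parts of a genomic span mix exons and introns, which were not told apart here, and the coverage along the genes was not used.

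**Figure D3:**
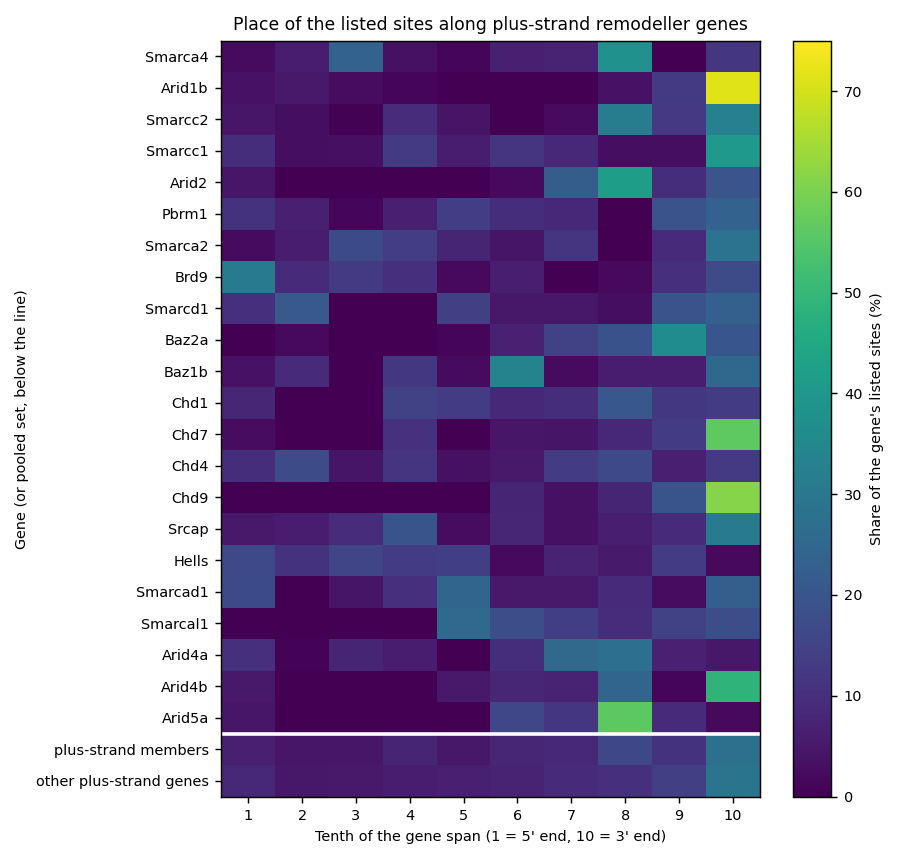
Share of each gene's listed sites that fell in each of 10 equal parts of its genomic span, for the 22 members with 50 or more sites and, below the white line, for all plus-strand members and all other plus-strand genes. Colour gives the share in percent, from 0 (dark) to 75 (bright). Arid1b (71.2%), Chd9 (61.5%) and Chd7 (56.4%) are brightest in the last part, and Arid5a in the eighth.

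Within genes, sites stood close together: 73.8% of member sites had a neighbouring site no more than 10 nt away, against 70.1% in other genes. In the densest 1000 nt of its span, Smarcc2 had 66 sites (chromosome 10, 128483432 to 128484431), Arid5a 61, Baz1b 60, Arid4b 57, Arid4a 55 and Arid1b 53. Pbrm1 and Hells were more even, with 18 and 14 sites in their densest 1000 nt. Sites within a run are often covered by the same reads, so they are not separate measurements of a gene.

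Agreement between the Tet2 KO replicates could be read only at shared sites. A call in both was listed for 654 of 4718 member sites (13.9%, exact interval 12.9 to 14.9), against 14.3% of sites in all genes. At these sites the SD between the replicates had a median of 0.0686 (quartiles 0.0297 and 0.119), and 10% of sites had an SD above 0.177. The median in other genes was 0.0707. The gene medians of plus-strand members ran from 0.42 in Hells to 0.553 in Smarcd1, and no test of genes against each other was made, since the sites of a gene share reads and no gene median of a single replicate is given. In the authors' deposited table the combined p of the methylation rate at member sites reached 0.0773, with a median of 0.00098. The authors' combined p of the methylation state, a separate value, was at most 0.000114 at these sites.

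Coverage moved with both values. At plus-strand member sites the median level was 0.527 at 10 to 14 covering reads (1407 sites) and 0.448 at 50 or more (247 sites), against 0.545 and 0.438 in other genes. The share called in both replicates was 9.17% and 21.5% in these coverage classes, against 8.78% and 17.1% in other genes. Of the 249 member sites with 50 or more reads on either strand, Baz1b had 44, Chd4 42, Smarca4 29, Baz2a 26, Smarcc1 23 and Smarcc2 21. Their part in the differences between members was not tested.

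**Figure D4:**
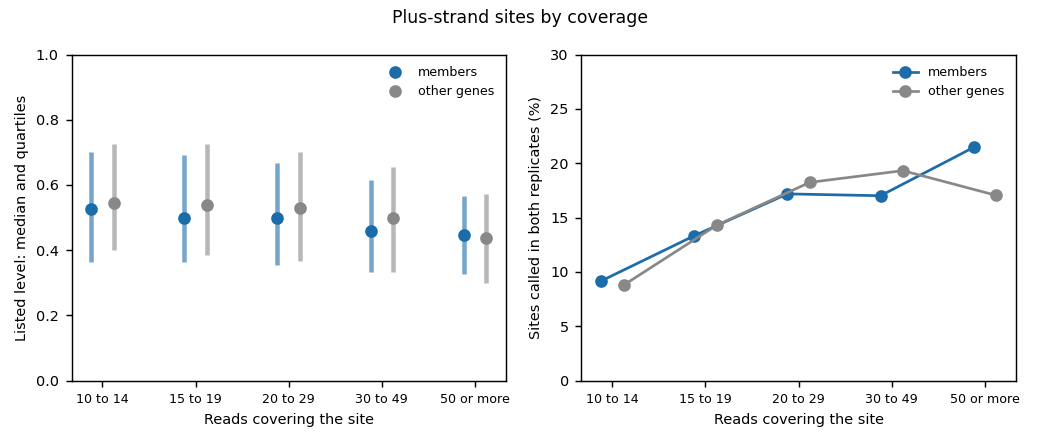
Plus-strand listed sites in members (left of each pair) and in all other genes, in 5 classes of covering reads. The left panel gives the median level with quartile bars and the right panel the share of sites called in both Tet2 KO replicates. The member medians run from 0.527 in the lowest class to 0.448 in the highest.

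Partner subunits that the name pattern misses also had sites. Of 57 such genes 39 (68.4%) had one, against 34.2% of all protein-coding genes, with a median level of 0.5 over 2740 sites, and 13.1% of these were called in both replicates. By the strand that RefSeq gives, 20 of 22 plus-strand and 8 of 19 minus-strand partners had a site, against 51.4% and 18.5% of all genes on these strands. Trrap, the large scaffold of the TIP60 complex, had the most (median level 0.545), more than any member. Rsf1, a partner of SNF2H, had 264 (0.457) and Nfrkb, an INO80 subunit, 183 (0.5). NuRD subunit genes again differed by strand. With plus-strand sites, Mta1 had 169, Mbd2 143, Mta2 115, Gatad2b 74, Rbbp7 70, Mta3 64 and Hdac2, which encodes a deacetylase of the complex, 58. Mbd3, Gatad2a and Rbbp4, with minus-strand sites, had 1 each (0.214, 0.2 and 0.3), and Hdac1 and Cdk2ap1 had none.

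The labelled cell type was checked against marker lists by whether a gene had a site, which is no measure of expression and moves with strand (51.4% of plus-strand, 18.5% of minus-strand and 34.2% of all protein-coding genes). Sites were listed in 11 of 15 myeloid and leukemia markers, including Mpo (217 sites), Itgam (158) and Kit (106). Among these 11, Lyz2 and Runx1 had only 1 site each (level 0.2) and Cd33 had 3 (median 0.231), none called in both replicates. Ptprc, Ctsg, Cebpe and Ms4a3 had no listed site. Sites were also listed in 1 of 5 markers of T and NK cells (Nkg7) and in 0 of 4 markers each of B cells, erythroid cells and neurons. Of the myeloid markers with a RefSeq strand, 6 of 6 on plus and 3 of 6 on minus had a site, and of the T and NK markers 1 of 2 and 0 of 2. The B cell list had 1 marker on plus and 0 on minus, the erythroid list 1 and 2, and the neuron list 2 and 1, so lists this small without a site say little about those cells. Pancreatic islet markers had sites in 6 of 6 genes, hormone genes such as Gcg and Ins2 among them, 593 in all, of which 64.8% were called in both replicates, although the labels name AML cells alone; by strand these were 2 of 2 on plus and 3 of 3 on minus. Remodeller genes are expressed in most cell types, and the part of such RNA in their sites was not tested.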

How the data were processed

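Poly(A) RNA of 2 Tet2 KO and 2 WT libraries was sequenced after bisulfite treatment, and the genome build mm10 is named in the submitters' processing notes. No aligner, site caller or annotation is named in the labels or the file header. The deposited table has one line per site. Its level is a fraction computed by the authors from the reads used. Its read numbers are a score rounded by the authors, the mean over the Tet2 KO replicates with a call (the reads of 1 library where 1 replicate made it). The SD of the level, the authors' combined p-values and the number of replicates with a call were deposited as columns of their own. The scaled read numbers and the SEM were not used here. Library totals were not used here.

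Gene labels were split at commas and matched to RefSeq symbols or unique synonyms (7806 of 7823 labels); 2 member sites had 2 labels. The strand of a gene came from the RefSeq promoter table where it holds the gene, and otherwise from its sites, so members with a strand from their sites only were kept out of shares by strand. At sites with 1 call, reads used were the unconverted reads over the level, whole in 100% of 4064 member sites (tolerance 0.0006). The deposited SD was read as a population SD, since the mean plus this SD came to 1 (tolerance 0.0012) at 4803 of 72227 shared sites, against 1199 for a sample SD; printed SDs are sample SDs. Wilson intervals (single sites) and Clopper-Pearson intervals (shares) at 95% cover counting error only, and reads may be copies of one molecule.

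The members and lists were chosen with earlier results of these data known, so no test of the list was made, and a test of Tet2 KO against WT was not possible. Named were the 3 members with the most sites per group, minus-strand members with 5 or more sites, and per group the sites with most reads used, with the highest level at 20 or more reads used (both among sites with 1 call) and with the highest mean level in both replicates. Other members were named to account for all, and partner subunits, other ATPases and markers were picked for naming after their values were seen. The reference letters at sites were looked up after the table had been seen. Steps were tested on simulated data. Python 3.11.15, pandas 2.3.3, numpy 2.4.6 and scipy 1.17.1 were used.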

Additional observations from a re-analysis of the deposited data

How the results depend on the processing

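The median level of member sites was 0.5 and ranged over the alternatives tried from 0.447 (50 or more covering reads) to 0.545 (levels of at least 0.3). The number of members with a site was 39 and came to 33, 30 and 21 at minimums of 20, 30 and 50 covering reads. It was 23 at 20 or more reads used, 26 for calls in both replicates and 29 at levels of at least 0.3. The number of member sites was 4718 and came to 2063, 886 and 249 at minimums of 20, 30 and 50 covering reads, 997 at 20 or more reads used, 654 for calls in both replicates and 1234 for sites with no other within 10 nt. The share called in both replicates was 13.9% and came to 17.5%, 18.2% and 21.3% at these coverage minimums. The share in the last of the 10 parts of the gene was 27.7% and came to 25.3% and 11.2% at 30 and 50 covering reads, 21.3% at 20 or more reads used, 30.4% for calls in both replicates and 29.1% without the other ARID genes and the non-coding RNA. Each of these settings keeps fewer sites by construction; why the share in the last part changes was not tested. At 50 or more reads, the minus-strand members left were Chd3 and Ino80, with 1 site each. No paired analysis was possible because the table ties no value to a named library and holds none of WT, so leaving out a replicate could not be run either. Depth limits single sites: with 10 reads used, a level of 0.2 has an interval from 0.0567 to 0.510.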

Other observations

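Other SNF2-family ATPase genes that the name pattern does not take in had listed sites in 8 of 11 cases, against 34.2% of all protein-coding genes. They had 1016 sites in all, with a median level of 0.5, and 15.1% of these were called in both replicates. By the strand that RefSeq gives, 5 of 5 plus-strand and 2 of 3 minus-strand genes had a site, against 51.4% and 18.5% of all genes on these strands. Btaf1, whose product removes the TATA-binding protein from DNA, had 244 sites (median 0.5), Ercc6, the Cockayne syndrome gene of transcription-coupled repair, 216 (0.5), Shprh 169 (0.579), Rad54b 158 (0.5), Hltf 127 (0.478) and Ercc6l2 99 (0.54). Rad54l and Zranb3, with minus-strand sites, had 1 and 2.

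In Chd4, a site with 10 of 10 reads counted as unconverted (Wilson interval 0.722 to 1) stood at position 125097086 on chromosome 6. This position is the last base of the Mir7045 hairpin as RefSeq places it, and its reference letter is G. Of the plus-strand sites called in both replicates with a known reference letter, over the whole table, 68.4% stood on C (590 of 862), against 62.9% of those with levels of 0.9 or more and 53.1% of those with levels of 0.25 or less.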
